A study of Homo sapiens with 27 samples.

Results

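Drug-resistant populations of the human colorectal cancer line HCT116 were compared directly: cells resistant to 5-fluorouracil (5-FU res) and cells resistant to oxaliplatin (OX res). The comparison took the 6 HCT116 libraries whose titles name one of these drugs, 3 per population, of 27 libraries in the series. The 5-FU res cells had been grown in 5-FU raised from 5 to 70 μM and the OX res cells in oxaliplatin raised from 5 to 35 μM, both for 6 months. The doses differ, so a difference belongs to a drug at its own doses and to the population selected in it, and these cannot be told apart. Nothing in the sources used here gives more than 1 selected population per drug, or says whether the 3 libraries came from separate cultures, so every p-value measures the spread between libraries of 1 population, which may be technical. Untreated HCT116 libraries (WT) were not used here, and a difference does not say which population departed from WT. HCT116 is a line of colonic carcinoma cells.

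5-FU is a pyrimidine analogue. Cells convert it to nucleotides that block thymidylate synthase (TYMS), the enzyme that makes the thymidine nucleotide for DNA, and that are built into RNA and DNA. Oxaliplatin is a platinum compound that crosslinks DNA bases, and it also disturbs ribosome assembly. In epithelial cells, type I interferon signalling runs from receptors through a complex that includes STAT2 and IRF9 and that binds a DNA element rich in GAAA repeats, to a large set of antiviral and antigen-presentation genes.

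The deposited tables hold FPKM values for 26255 genes, and these were divided here by each library's sum to give TPM, a level per length that sums to the same total in each library. The 13870 genes that reached 1 TPM in 3 or more of these 6 libraries were tested with limma on log2(TPM + 1). Of these genes, 130 passed only through 5-FU res and 562 only through OX res, with no library of the other population at 1 TPM. Such a gene had to differ, so list counts are also given without these members where a list holds any. Differences are 5-FU res minus OX res on this log scale, where changes of genes near 0 come out too small. Pairs of libraries of the same population correlated at 0.993 to 0.994 (Pearson r of log2(TPM + 1) across genes) and pairs of different populations at 0.957 to 0.960. Of 14 epithelial markers, 9 had 1 TPM or more in all 3 libraries of each population, and CDX1, VIL1, LGALS4 and CDH17 were under 1 TPM in every library. Of 10 leukocyte markers, 8 (PTPRC, CD3D, CD3E and MS4A1 among them) were under 1 TPM in every library, and the summed level of the list, 15.9 to 19.2 TPM in 5-FU res and 58.1 to 70.2 TPM in OX res, was mostly CD68, a lysosomal protein also made by epithelial cells, at 14.9 to 18.2 TPM in 5-FU res and 54.7 to 66.7 TPM in OX res. Fibroblast markers summed to 6.20 to 6.95 TPM in 5-FU res and 15.7 to 18.2 TPM in OX res, and endothelial markers to 5.59 to 6.86 TPM in 5-FU res and 8.84 to 9.96 TPM in OX res. Of 9 fibroblast markers only COL1A1 reached 1 TPM, and of 7 endothelial markers only ESAM. COL1A1 was at 6.04 to 6.85 TPM in 5-FU res and 14.9 to 17.6 TPM in OX res. ESAM was at 5.22 to 6.27 TPM in 5-FU res and 8.14 to 8.96 TPM in OX res.

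Promoter stretches are printed here for members of 3 gene groups on which the comparison turned. The first set comes from genes of the interferon list and holds GAAA, any 2 bases, and GAAA again, a core form of the interferon-stimulated response element and a motif chosen after the data were seen. The sequences come from RefSeq promoters of build GRCh38.p14, each written along its gene's own strand with the match in capitals, and a pair of TTTC is the same element on the other strand.
IFI27 (chr14:94110618-94110647, plus strand): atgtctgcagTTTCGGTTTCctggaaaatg
IFI6 (chr1:27672329-27672358, minus strand): ggagagagggGAAAATGAAActctgcagag
BST2 (chr19:17405741-17405770, minus strand): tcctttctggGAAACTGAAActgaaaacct
IFIT1 (chr10:89392497-89392526, plus strand): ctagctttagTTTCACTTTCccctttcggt
IFITM1 (chr11:313990-314019, plus strand): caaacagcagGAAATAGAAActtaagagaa
ISG15 (chr1:1013380-1013409, plus strand): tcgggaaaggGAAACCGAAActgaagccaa
B2M (chr15:44711369-44711398, plus strand): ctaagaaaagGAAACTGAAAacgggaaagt

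The second set comes from mitosis genes and holds TTTGAA, the core of the cell cycle gene homology region, through which DREAM and MuvB complexes act on mitotic genes. The last 3 come from DNA replication genes and hold TTTGGCGC or TTTCCCGC, forms of the E2F element, on either strand.
CDC20 (chr1:43358906-43358931, plus strand): acggttggatTTTGAAggagccaata
BUB1B (chr15:40161036-40161061, plus strand): gaccgttaaaTTTGAAacttggcggc
PLK1 (chr16:23678850-23678875, plus strand): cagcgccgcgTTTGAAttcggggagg
MKI67 (chr10:128126437-128126462, minus strand): ttcgttttcgTTTGAAttgggcgggc
MCM6 (chr2:135876516-135876543, minus strand): attggtcaggTTTGGCGCgaaatctcca
POLA1 (chrX:24693771-24693798, plus strand): tcatcacaggGCGCCAAAcgcgcgtccg
MCM7 (chr7:100101567-100101594, minus strand): agctcggaccGCGGGAAAcccggcgcct

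Both strands of every window, 250 bases before to 50 after a start, were searched. The interferon element was found in 36 of 60 promoters (31 of 45 genes) of the interferon list, against 1250 of 34961 promoters in all (3.58%). TTTGAA was found in 42 of 68 promoters (39 of 56 genes) of the mitosis list, against 15.2% of all promoters. Either E2F form was found in 19 of 52 promoters (19 of 40 genes) of the DNA replication list, against 2.28% of all promoters. These matches describe letters in a window and not binding.

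Most genes differed between the populations, more of them lower than higher in 5-FU res. By an adjusted p under 0.05 (limma, Benjamini-Hochberg) and a log2 difference beyond 1, 717 genes were higher in 5-FU res (5.17% of those tested) and 2416 were lower (17.4%). The median gene differed by -0.34 on the log2 scale. When libraries were scaled by the median of ratios, the median moved to -0.00 and the same calls came to 1273 higher (9.18%) and 1356 lower (9.78%). All 717 genes called higher by TPM were called higher under that scaling too, all 1356 of its lower genes were among the 2416, and none changed direction. By the adjusted p alone, which is used for the gene lists, 19.6% of genes were higher and 56.3% lower on TPM, and 36.9% higher and 37.2% lower under median-of-ratios scaling. The ranges of the populations did not overlap for 77.4% of genes tested, so separation alone says little of any one gene. Cytosolic ribosomal protein genes took 24.8% ± 1.10 of TPM in 5-FU res and 12.6% ± 0.510 in OX res (SD, n = 3 each), every 5-FU res library above every OX res library (exact permutation test, p = 0.1, the smallest 3 against 3 can give), and this share enters the library sum that TPM divides by.

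The interferon response was far lower in 5-FU res than in OX res, with the median furthest from 0 of the 51 gene lists measured. IFI27, an interferon-induced mitochondrial protein, had 1.32, 1.49 and 0.919 TPM in 5-FU res libraries, against 3266, 3019 and 2981 TPM in OX res libraries, a difference of -10.44 ± 0.089 (SE, limma adjusted p = 5.7e-13). It was near the floor in one population and among the most abundant transcripts of the other. IFI6 had 17.4, 11.6 and 12.3 TPM in 5-FU res, against 4883, 4725 and 4732 TPM in OX res. BST2, or tetherin, which holds budding virus at the cell surface, had 2.76, 4.73 and 3.74 TPM in 5-FU res, against 1210, 1170 and 1181 TPM in OX res. XAF1, a pro-apoptotic interferon target, had 0.0433, 0 and 0.0868 TPM in 5-FU res, against 133, 132 and 142 TPM in OX res. For each of these genes the 3 OX res libraries lay close together and far above every 5-FU res library.

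All 60 genes of the interferon list were tested and all 60 were lower in 5-FU res under both scalings, beside the 56.3% of all genes lower on TPM and 37.2% under median-of-ratios scaling. Of the 60, 12 passed the filter only through OX res, and the other 48 were all lower too, with a median of -3.55. The median of the 60 was -3.87 on TPM and -3.57 under median-of-ratios scaling, and their summed level ran from 4038 to 4121 TPM in 5-FU res libraries and from 49006 to 51057 TPM in OX res libraries. By role, the RNA sensors were lower: IFIH1 (MDA5) by -3.59 and DDX58 (RIG-I) by -3.16. Among the transcription factors, IRF9 had 10.2, 11.3 and 10.4 TPM in 5-FU res, against 217, 212 and 224 TPM in OX res, a difference of -4.23, and IRF7 differed by -4.40. Among antiviral effectors, OAS1 and OAS2, which make the 2-5A signal for RNA decay, differed by -6.33 and -6.14, IFIT1, which binds foreign RNA caps, by -5.97, and IFITM1, which blocks virus entry, by -6.04. The ubiquitin-like modifier ISG15 had 172, 160 and 142 TPM in 5-FU res, against 2694, 2435 and 2484 TPM in OX res. IFI44, IFI44L and BATF2, an interferon-induced transcription factor, were also among the 12 genes furthest below, at -6.72, -6.05 and -5.39, as was the complement component C3 at -5.95. The smallest difference of the list was that of PLSCR1, a phospholipid scramblase, at -1.19.

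Class I antigen presentation genes were lower with them. B2M, the invariant light chain of class I molecules, had 872, 877 and 923 TPM in 5-FU res, against 7623, 7964 and 7167 TPM in OX res, a difference of -3.09 ± 0.052 (limma adjusted p = 1.8e-11). The heavy chains HLA-B and HLA-C differed by -4.46 and -3.37. Class I heavy chain genes are close copies of each other, so reads shared between them could be split by the authors' counting, and their separate levels are uncertain. The peptide transporter TAP1 had 70.3, 64.5 and 63.6 TPM in 5-FU res, against 358, 349 and 361 TPM in OX res. The inflammatory caspases CASP1 and CASP4 were lower too, at -3.76 and -1.62.

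**Figure D1:**
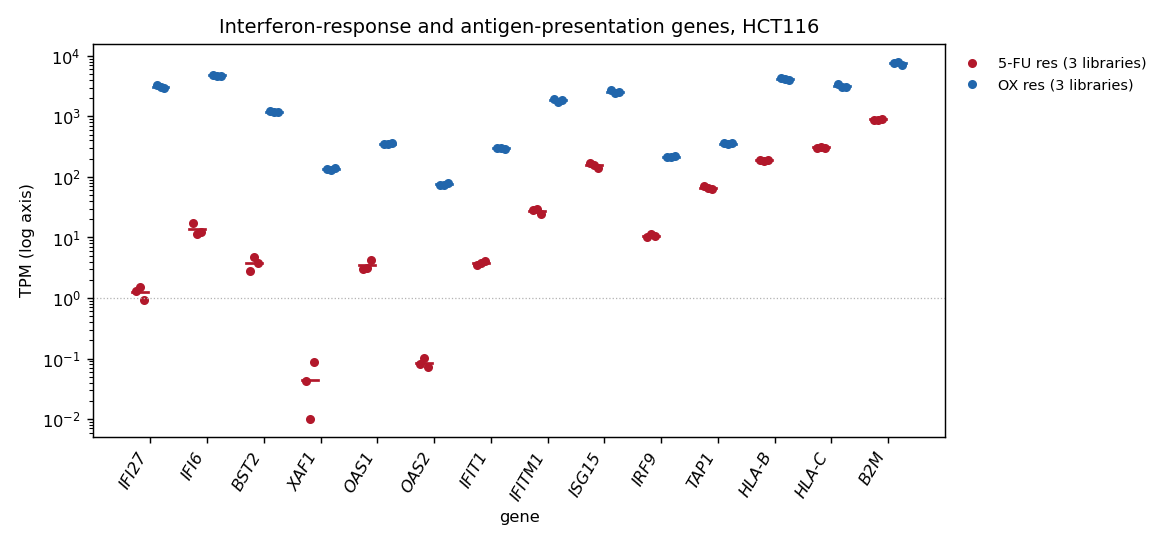
TPM on a log axis of 14 interferon-response and antigen-presentation genes in each HCT116 library, 5-FU res in red left of OX res in blue, with a bar at the mean of 3 libraries (values of 0 are drawn at 0.01 TPM). For every gene all 3 5-FU res points lie below all 3 OX res points; IFI27 averaged 1.24 TPM in 5-FU res and 3089 TPM in OX res.

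Genes of the amino acid and unfolded protein responses were also lower in 5-FU res, but not the heat shock chaperones. ATF4 is the factor that raises amino acid synthesis and transport genes when translation initiation is restrained. Of 30 tested genes of its response, 28 were lower in 5-FU res and 1 was higher under TPM (28 and 2 under median-of-ratios scaling), with a median of -1.74. Of these members 1 passed only through OX res, and the other 29 had 27 lower and a median of -1.64. Over all genes tested, 56.3% were lower on TPM and 37.2% under median-of-ratios scaling, with a TPM median of -0.34. CHAC1, which degrades glutathione, had 1.89, 1.45 and 1.74 TPM in 5-FU res, against 61.2, 53.3 and 62.9 TPM in OX res. DDIT3 (CHOP), a death-promoting factor of prolonged stress, had 18.4, 20.5 and 23.9 TPM in 5-FU res, against 332, 338 and 314 TPM in OX res. TRIB3, a pseudokinase under CHOP, differed by -3.63, the cystine carrier SLC7A11 by -2.84 and asparagine synthetase ASNS by -2.12. The tRNA synthetases AARS, CARS and WARS differed by -1.92, -2.05 and -1.89, but the 20 synthetases as a list had 4 higher and 12 lower on TPM and 11 higher and 9 lower under median-of-ratios scaling. The populations did not overlap for 29 of the 30 response genes and 16 of the 20 synthetases, beside 77.4% of all genes tested.

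Genes of the unfolded protein response, which relieves misfolding in the endoplasmic reticulum, had 24 of 26 tested members lower and 0 higher (23 and 1 under median-of-ratios scaling), with a median of -1.15. HSPA5 (BiP), the main chaperone there, had 137, 141 and 144 TPM in 5-FU res, against 644, 646 and 646 TPM in OX res. XBP1, a factor of the same response, differed by -2.46, HERPUD1, of protein disposal, by -2.30, and the coat subunit SEC24D by -3.24. Of 26 heat shock chaperones, which fold proteins in the cytosol and mitochondria, 12 were higher and 8 lower (18 and 3 under median-of-ratios scaling), with a median of 0.12. Of 49 lysosomal genes, 45 were lower and 4 higher (44 and 4 under median-of-ratios scaling), with a median of -1.14. The share of all genes that were lower was 56.3% on TPM and 37.2% under median-of-ratios scaling. Acid sphingomyelinase SMPD1 differed by -2.89, cathepsin H (CTSH) by -2.76, TFEB, a factor that drives lysosomal genes, by -2.02, and cathepsin D (CTSD) had 202, 185 and 178 TPM in 5-FU res, against 666, 600 and 688 TPM in OX res.

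Proliferation genes went the other way. Of 68 mitosis genes, 66 were higher in 5-FU res and 1 was lower (67 and 1 under median-of-ratios scaling), with a median of 1.44, while 19.6% of all genes were higher on TPM. The kinase CDK1, which drives entry to mitosis, had 143, 152 and 163 TPM in 5-FU res, against 35.3, 33.7 and 32.4 TPM in OX res, a difference of 2.14 ± 0.063 (limma adjusted p = 8.3e-10). MKI67, the Ki-67 antigen of cycling cells, had 95.4, 74.2 and 87.9 TPM in 5-FU res, against 16.8, 15.0 and 20.7 TPM in OX res. CENPF, a kinetochore protein, differed by 2.32, BUB1B, of the spindle checkpoint, by 2.07, and topoisomerase TOP2A by 2.05. CDC25B, a phosphatase that activates CDK1, was the 1 lower member, at -1.16. The other 4 mitosis genes on chromosome 20, AURKA, MYBL2, TPX2 and UBE2C, were higher, at 0.37, 0.91, 0.92 and 1.43.

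Of 50 DNA replication genes, 44 were higher and 3 lower (48 and 1 under median-of-ratios scaling), with a median of 0.89. The helicase subunit MCM7 had 239, 228 and 222 TPM in 5-FU res, against 56.4, 54.8 and 56.5 TPM in OX res. Its partner MCM6 differed by 0.78, the polymerase subunit POLA1 by 0.99, the clamp loader subunit DSCC1 by 2.38 and the licensing factor CDT1 by 1.93. Around the G1 to S transition, cyclin E2 (CCNE2) differed by 1.93 and the E2F factors E2F2 and E2F8 by 1.71 and 1.43, while the CDK inhibitors CDKN2A and CDKN2B differed by -1.54 and -1.67. Over the list of G1 cyclins and CDK inhibitors, 12 of 25 were higher and 6 lower (19 and 5 under median-of-ratios scaling). The shares over all genes tested were 19.6% higher and 56.3% lower on TPM. Under median-of-ratios scaling they were 36.9% and 37.2%. The summed level of the list was lower, at 2403 to 2504 TPM in 5-FU res and 3235 to 3587 TPM in OX res. Such a sum is weighted to the most abundant members, and cyclins and inhibitors were not summed apart. CDKN2B had 4.43, 4.59 and 4.82 TPM in 5-FU res, against 16.97, 15.8 and 17.8 TPM in OX res. Cell cycle position was not measured, and more cells in a phase cannot be told apart from more RNA per cell in these bulk samples.

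MYC, the transcription factor that drives ribosome and growth genes, had 460, 443 and 430 TPM in 5-FU res, against 92.9, 93.5 and 99.6 TPM in OX res, a difference of 2.21 ± 0.049 (limma adjusted p = 1.2e-10). MXD4, a repressor that competes for its partner MAX, went the other way at -1.41. Of 78 cytosolic ribosomal protein genes, 77 were higher and 0 lower under both scalings, with a median of 0.97, while quantile normalization gave 64 higher and 6 lower and a median of 0.56. RPL3 had 4178, 4347 and 4205 TPM in 5-FU res, against 1381, 1346 and 1348 TPM in OX res. The elongation factor EEF1A1 had 11018, 11056 and 11218 TPM in 5-FU res, against 4577, 4555 and 4352 TPM in OX res. Ribosomal protein genes have many processed copies in the genome, among which the authors' counting could split reads. Of 66 ribosome assembly genes, 39 were higher and 13 lower (54 and 3 under median-of-ratios scaling). Over all genes tested, 19.6% were higher on TPM and 36.9% under median-of-ratios scaling. The rRNA methyltransferase FBL had 335, 357 and 330 TPM in 5-FU res, against 110, 107 and 102 TPM in OX res, and TCOF1, a cofactor of rRNA transcription, differed by 1.59. Mitochondrial ribosomal proteins depended on the scaling, with 10 higher and 48 lower of 76 on TPM, and 28 higher and 17 lower under median-of-ratios scaling. So did oxidative phosphorylation, with 8 higher and 56 lower of 77 on TPM, and 25 higher and 18 lower under median-of-ratios scaling. The share of all genes tested that were lower was 56.3% on TPM and 37.2% under median-of-ratios scaling. On TPM the medians of both lists, -0.31 and -0.32, lay near the -0.34 of all genes.

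Epithelial genes were higher in 5-FU res, and some of them were almost absent in OX res. AP1M2, the epithelial subunit of a sorting complex for basolateral proteins, had 151, 170 and 165 TPM in 5-FU res, against 0.376, 0.0909 and 0.601 TPM in OX res, the largest difference upward at 6.92 ± 0.13 (SE). AP1M2, and RAB25 and GRHL2 below, passed the filter only through 5-FU res and so had to differ. RAB25, an epithelial recycling GTPase, had 134, 144 and 141 TPM in 5-FU res, against 0.324, 0.314 and 0.690 TPM in OX res. The membrane serine proteases ST14 (matriptase) and PRSS8 (prostasin) differed by 4.92 and 4.71, and the calcium-binding protein S100A14 by 5.53. GRHL2, a factor that maintains epithelial identity, had 22.3, 19.7 and 21.9 TPM in 5-FU res, against 0, 0 and 0.0314 TPM in OX res. ESRP1, which sets epithelial splicing, had 96.3, 87.6 and 99.6 TPM in 5-FU res, against 17.1, 17.3 and 20.7 TPM in OX res. At the junctions, claudin 7 (CLDN7) had 195, 186 and 188 TPM in 5-FU res, against 13.5, 13.5 and 15.9 TPM in OX res, E-cadherin (CDH1) differed by 2.32 and EPCAM by 2.82. Over the list, 39 of 54 tested members were higher and 9 lower (44 and 4 under median-of-ratios scaling), with a median of 0.77. Without the 5 that passed only through 5-FU res, 34 of 49 were higher and 9 lower, with a median of 0.73. Over all genes tested, 19.6% were higher on TPM. The keratins, a separate list, had 3 higher and 8 lower of 13 (3 and 6 under median-of-ratios scaling). Without the 2 keratins that passed only through OX res, 3 of 11 were higher and 6 lower. The share of all genes tested that were lower was 56.3% on TPM and 37.2% under median-of-ratios scaling. The keratins' summed level was higher in 5-FU res, at 7090 to 7656 TPM, against 5771 to 6187 TPM in OX res. The focal adhesion protein TNS4, the protease KLK5, the laminin chain LAMA3 and the adhesion receptor ADGRF1 were also near the floor in OX res, at differences of 4.96, 5.59, 4.14 and 5.68.

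Mesenchymal and matrix genes were lower in 5-FU res for 29 of 39 tested and higher for 5 (27 and 8 under median-of-ratios scaling), with a median of -1.06. Without the 3 that passed only through OX res, 26 of 36 were lower, with a median of -1.003. Among all genes tested, 56.3% were lower on TPM and 37.2% under median-of-ratios scaling. Vimentin (VIM), a filament protein of mesenchymal cells, had 2.68, 2.31 and 2.89 TPM in 5-FU res, against 42.7, 42.8 and 44.1 TPM in OX res. ZEB1, a repressor of E-cadherin, had 0.718, 0.747 and 0.720 TPM in 5-FU res, against 13.3, 12.5 and 16.1 TPM in OX res. The matrix proteins SPARC and fibronectin (FN1) differed by -3.91 and -3.46, and LOXL4, which crosslinks collagen, by -4.35. Not all of the list moved this way: the urokinase PLAU had 472, 473 and 491 TPM in 5-FU res, against 104, 102 and 114 TPM in OX res. S100A4, often used as a fibroblast marker, had 3831, 4408 and 4083 TPM in 5-FU res, against 738, 748 and 697 TPM in OX res, while its relative S100A6 had 3574, 4095 and 3774 TPM in 5-FU res, against 9928, 10110 and 9027 TPM in OX res.

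**Figure D2:**
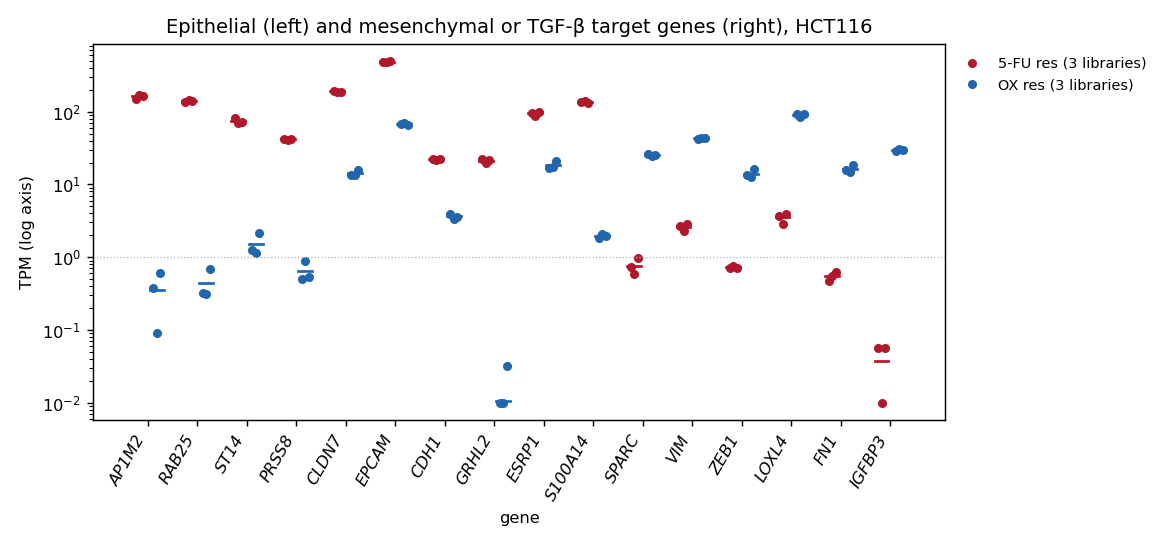
TPM on a log axis of 10 epithelial genes and 6 mesenchymal or TGF-β target genes in each HCT116 library, 5-FU res in red left of OX res in blue, with a bar at the mean of 3 libraries (values of 0 are drawn at 0.01 TPM). The epithelial genes, on the left, are higher in every 5-FU res library, and those on the right are lower in every 5-FU res library. The genes drawn are a selection. Over the lists, 9 of 54 tested epithelial genes were lower and 5 of 39 mesenchymal and matrix genes higher. Ranges did not overlap for 77.4% of all genes tested.

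TGF-β signalling, to whose ligand family GDF15 belongs, acts through receptors that phosphorylate SMAD factors. Of 23 tested target genes of TGF-β and BMP, 17 were lower in 5-FU res and 3 higher (16 and 5 under median-of-ratios scaling), with a median of -1.19, or -1.85 with a pseudocount of 0.1. Without the 4 that passed only through OX res, 13 of 19 were lower and 3 higher, with a median of -0.93. By comparison, 56.3% of all genes tested were lower on TPM. Of the 13178 genes with a library at 1 TPM in each population, 7260 were lower, with a median of -0.32. IGFBP3, which binds insulin-like growth factors, had 0.0566, 0 and 0.0567 TPM in 5-FU res, against 29.0, 30.7 and 29.4 TPM in OX res, and CTGF, a matrix-associated growth factor, differed by -3.38. The ligands, receptors and SMADs were mixed, with 6 higher and 16 lower of 32 on TPM and 15 higher and 11 lower under median-of-ratios scaling. Without the 2 of them that passed only through OX res, 6 of 30 were higher and 14 lower (15 and 9 under median-of-ratios scaling). SMAD3 had 119, 109 and 116 TPM in 5-FU res, against 49.95, 44.4 and 54.6 TPM in OX res, and the activin receptor ACVR2B differed by 2.31, while the co-receptor TGFBR3 differed by -1.84 and the activin antagonist FST by -2.50.

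GDF15, the stress-induced TGF-β family cytokine at the centre of the study, had 1073, 934 and 912 TPM in 5-FU res, against 1658, 1504 and 1660 TPM in OX res, a difference of -0.73 ± 0.067 (limma adjusted p = 3.3e-06). Its fold stayed under the threshold, and under median-of-ratios scaling the difference was -0.35. KLF4, a pluripotency and colonic differentiation factor, had 15.8, 13.7 and 17.4 TPM in 5-FU res, against 94.0, 84.2 and 97.2 TPM in OX res. Of the 13 stem cell markers the study lists, 8 passed the filter, and they did not move together. EPCAM, which is also epithelial, and PROM1 (CD133) were higher in 5-FU res, with PROM1 at 16.9, 15.0 and 16.7 TPM in 5-FU res and 9.84, 9.18 and 10.5 TPM in OX res. ALCAM (CD166) differed by -0.73, CD24 by -1.06 and the peptidase DPP4 (CD26) by -1.70. CD44, the hyaluronan receptor, had 492, 453 and 501 TPM in 5-FU res, against 576, 572 and 596 TPM in OX res, and its difference of -0.27 turned to 0.10 under median-of-ratios scaling. The integrin ITGB1 differed by 0.20 (limma adjusted p = 0.0070) and ITGAV by 0.21 (limma adjusted p = 0.13), a call that median-of-ratios scaling turned, at 0.56 (limma adjusted p = 0.00034). LGR5, SOX2, NANOG and ALDH1A1 stayed under 1 TPM in every library, and POU5F1 was at 1.39, 0.833 and 1.499 TPM in 5-FU res, against 0.157, 0.397 and 0.506 TPM in OX res.

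Genes that handle 5-FU differed at several steps. The target TYMS had 123, 112 and 119 TPM in 5-FU res, against 77.0, 79.5 and 81.1 TPM in OX res, a difference of 0.57 ± 0.054 (limma adjusted p = 3.9e-06). Thymidine kinase TK1, which supplies the same nucleotide by salvage, had 218, 236 and 205 TPM in 5-FU res, against 54.4, 51.6 and 55.9 TPM in OX res. Cytidine deaminase CDA, of pyrimidine salvage, had 76.5, 83.6 and 74.5 TPM in 5-FU res, against 8.25, 5.45 and 5.79 TPM in OX res, the largest difference of the list at 3.42. RRM2, a ribonucleotide reductase subunit, differed by 1.84, the uracil glycosylase UNG by 1.06, the uridine kinase UCK2 by 1.22, the nucleoside carrier SLC29A1 by 0.77 and the nucleotidase NT5E by 2.27. Thymidine phosphorylase TYMP, which can activate or degrade pyrimidine drugs, had 22.6, 20.1 and 18.1 TPM in 5-FU res, against 140, 125 and 152 TPM in OX res. DPYD, the main enzyme of 5-FU breakdown, was low in both populations, at 0.331, 0.148 and 0.281 TPM in 5-FU res and 2.13, 2.28 and 3.07 TPM in OX res. SAMHD1, which breaks down deoxynucleotides and is an interferon target in many cells, differed by -2.87. Over the list, 18 of 34 tested members were higher and 12 lower (24 and 7 under median-of-ratios scaling). Without the 1 that passed only through OX res, 18 of 33 were higher and 11 lower. Among all genes tested, 19.6% were higher on TPM and 36.9% under median-of-ratios scaling. In the folate cycle, which feeds TYMS, the folate carrier SLC19A1 differed by 1.201. The purine synthesis enzymes GART and PAICS differed by 1.18 and 1.07, and the serine hydroxymethyltransferase SHMT2 by -1.04.

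Genes that handle platinum were mixed. Of metallothioneins, small proteins that bind metals, 4 were tested (MT1E, MT1F, MT1X and MT2A), and all 4 were higher in 5-FU res under both scalings, with overlapping ranges for MT1F, whose call was lost without 5-FU res library 1 or 2. MT1E had 968, 912 and 873 TPM in 5-FU res, against 317, 314 and 287 TPM in OX res, and MT2A had 3625, 3375 and 2994 TPM in 5-FU res, against 1506, 1452 and 1474 TPM in OX res. They are near-identical genes, so the split between them is uncertain. LRRC8D, a subunit of the volume-regulated channel that lets platinum drugs in, had 14.2, 12.4 and 12.98 TPM in 5-FU res, against 46.7, 46.7 and 49.97 TPM in OX res. The copper transporter SLC31A1 (CTR1) differed by -0.72 and the copper chaperone ATOX1 by -0.92. Of 18 tested genes of this list, 6 were higher and 8 lower (8 and 7 under median-of-ratios scaling). Without the 1 that passed only through OX res, 6 of 17 were higher and 7 lower (8 and 6 under median-of-ratios scaling). The shares over all genes tested were 19.6% higher and 56.3% lower on TPM. Under median-of-ratios scaling they were 36.9% and 37.2%.

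Among DNA repair genes, the pathway for crosslinks and breaks was mostly higher in 5-FU res, while that for bulky lesions had no direction that both scalings shared. Of 38 Fanconi and homologous recombination genes, 25 were higher in 5-FU res and 5 lower (32 and 2 under median-of-ratios scaling), with a median of 0.69. By comparison, 19.6% of all genes were higher on TPM and 36.9% under median-of-ratios scaling. The helicase BLM had 14.6, 14.9 and 16.2 TPM in 5-FU res, against 2.55, 2.73 and 3.52 TPM in OX res, and BRIP1 and XRCC2 differed by 1.82 and 2.18. Nucleotide excision repair, which removes platinum adducts, had 2 higher and 16 lower of 26 (10 and 9 under median-of-ratios scaling), so its direction depended on the scaling. Its damage sensor XPC had 37.0, 35.5 and 34.2 TPM in 5-FU res, against 98.9, 87.5 and 102 TPM in OX res, and XPA differed by -1.57. CDKN1A (p21), which halts the cell cycle, had 762, 745 and 750 TPM in 5-FU res, against 1605, 1477 and 1604 TPM in OX res, and GADD45A differed by -2.71.

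**Figure D3:**
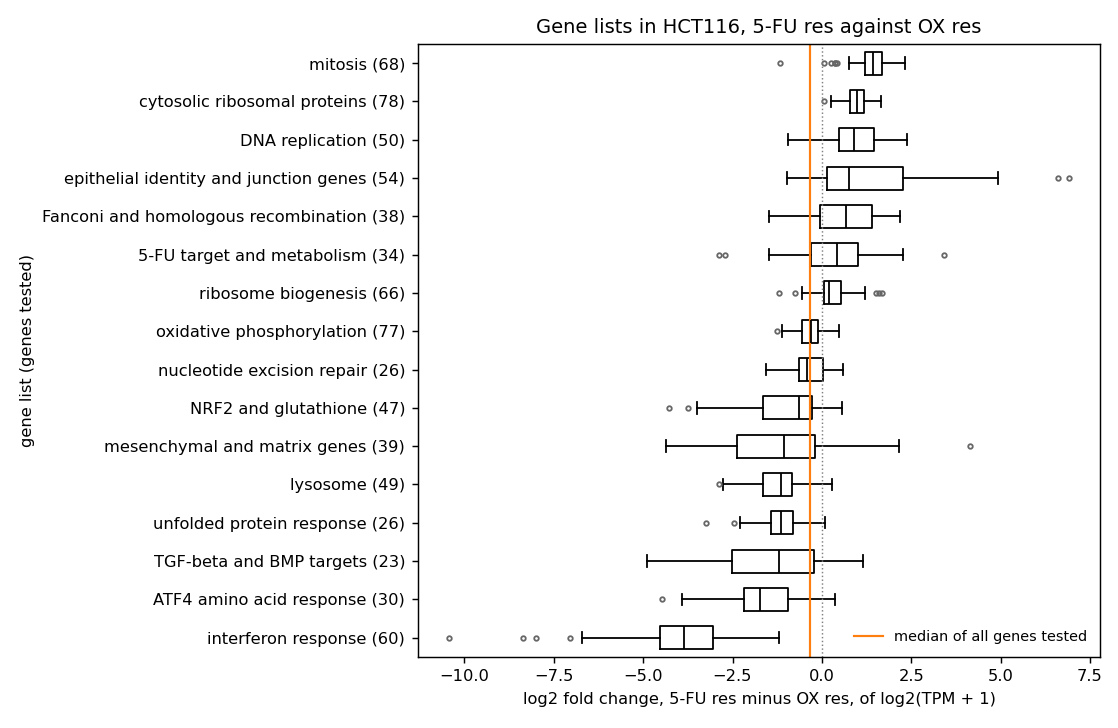
Box plot of the log2 difference, 5-FU res minus OX res, of log2(TPM + 1) for the tested genes of 16 gene lists (box, quartiles with the median; whiskers to 1.5 times the box; points, genes beyond). The orange line is the median of all genes tested, -0.34; mitosis (median 1.44) lies at the top and the interferon response (median -3.87) at the bottom.

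Populations resistant to the same drugs were available in SW480 and DLD-1, also colorectal cancer lines, with 3 libraries per population. They had been grown in 5-FU raised from 5 to 70 μM or oxaliplatin raised from 5 to 35 μM, for 6 months. Tests of the difference between lines (interaction terms of 1 limma fit over 18 resistant libraries, 15669 genes) asked which genes behaved differently in the HCT116 populations. A cell line and the populations selected from it cannot be told apart here. Against SW480, 1310 genes had a difference that was higher in HCT116 (8.36%) and 3766 one that was lower (24.0%), and against DLD-1 the counts were 1544 (9.85%) and 2554 (16.3%). Under median-of-ratios scaling they were 2094 and 2517 against SW480 and 1888 and 2032 against DLD-1. Of the 60 interferon genes, 59 were lower in HCT116 relative to SW480 and 60 relative to DLD-1, where lower means adjusted p under 0.05 and beyond 1 on the log2 scale. The list's own median was -3.87 in HCT116 (60 genes tested), 0.49 in SW480 (53 tested) and -0.15 in DLD-1 (46 tested). Own medians, here and below, cover the members tested in that line, so the gene sets can differ. The median of all genes was -0.34 in HCT116, 0.044 in SW480 and -0.157 in DLD-1. IFI27 averaged 146 TPM in SW480 5-FU res and 110 TPM in SW480 OX res, and 2.06 TPM in DLD-1 5-FU res and 1.96 TPM in DLD-1 OX res. The interaction of IFI27 was -10.84 ± 0.21 with SW480 (SE, limma adjusted p = 3.0e-16) and -10.50 ± 0.21 with DLD-1 (limma adjusted p = 2.6e-16).

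Mitosis genes were higher in HCT116 for 52 of 68 against SW480 and 65 of 68 against DLD-1, where their own medians were -0.02 and -0.87. The ATF4 list was lower for 16 of 30 against SW480 and 27 of 30 against DLD-1, and its own median was -1.74 in HCT116, -0.38 in SW480 and 1.15 in DLD-1. DDIT3 averaged 280 TPM in DLD-1 5-FU res and 37.8 TPM in DLD-1 OX res, and its interactions were -4.20 with SW480 and -6.78 with DLD-1. Epithelial genes were higher in HCT116 for 24 of 54 against SW480 and 32 of 54 against DLD-1. EPCAM averaged 105 TPM in SW480 5-FU res and 220.5 TPM in SW480 OX res, and 717 TPM in DLD-1 5-FU res and 891 TPM in DLD-1 OX res, so its difference had the other sign in both lines. MYC had interactions of 2.60 with SW480 and 2.03 with DLD-1. GDF15 averaged 73.9 TPM in SW480 5-FU res and 36.0 TPM in SW480 OX res, and 810 TPM in DLD-1 5-FU res and 740 TPM in DLD-1 OX res. Its interactions were -1.74 ± 0.11 with SW480 (limma adjusted p = 2.9e-10) and -0.86 ± 0.11 with DLD-1 (limma adjusted p = 2.4e-06).

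**Figure D4:**
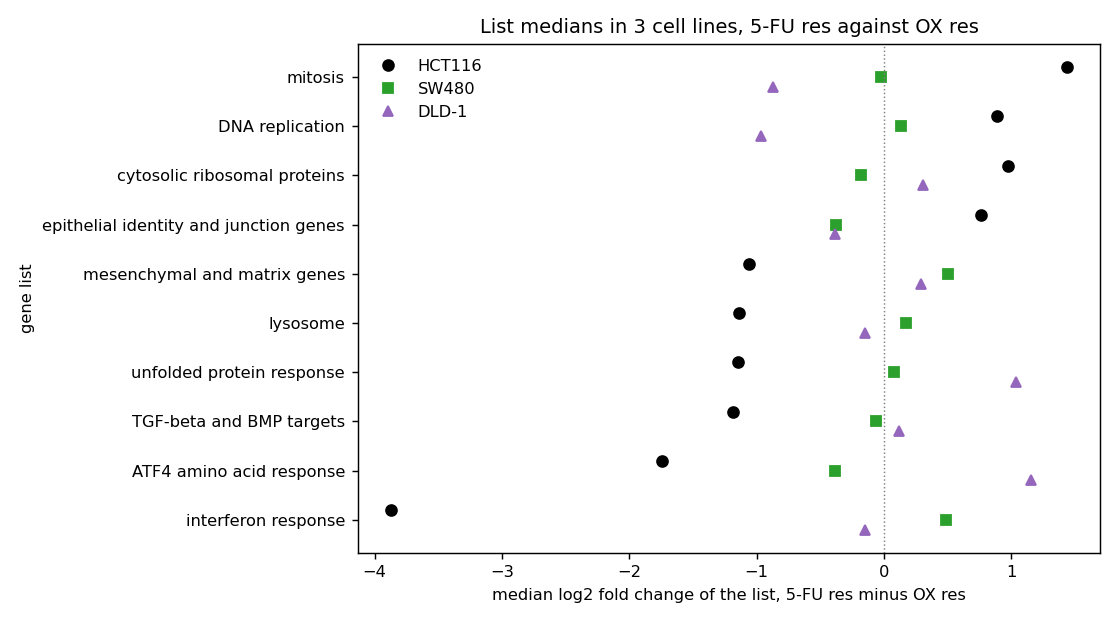
Median log2 difference, 5-FU res minus OX res, of 10 gene lists in HCT116 (black circles), SW480 (green squares) and DLD-1 (purple triangles). HCT116 lies apart from both other lines for most lists, from -3.87 for the interferon response to 1.44 for mitosis, while SW480 and DLD-1 stay between -0.97 and 1.15. Each median covers the list genes tested in that line, so the gene sets can differ. The median of all genes was -0.34 in HCT116, 0.044 in SW480 and -0.157 in DLD-1.

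Differences were not spread evenly over the genome. Of 379 genes tested on chromosome 20, the median was -0.89, against -0.34 for all genes, and 18.7% lay above the median of all genes. The rest of the chromosomes, except chromosome 8, had medians from -0.41 to -0.18. Genes were then placed by their start on GRCh37, the build the authors aligned to, in windows of 20 Mb, a step chosen after the chromosome medians were seen. All 4 windows of chromosome 20 were the lowest of 154, at -0.65 to -0.38 relative to all genes under median-of-ratios scaling. All 4 windows of chromosome 8 from 80 Mb to its end were the highest, at 0.45 to 0.93, and the other 146 windows lay between -0.26 and 0.41. The 227 genes of that last part of chromosome 8 had a median of 0.35 and 84.6% lay above the median of all genes, while the 219 genes before it had a median of -0.32. In SW480 the same 227-gene region (216 tested) had a median of -0.02 and chromosome 20 one of -0.05, and in DLD-1 they had medians of -0.14 and -0.15. MYC, GRHL2, ESRP1, DSCC1, ATAD2, CCNE2, SQLE and BOP1, all higher in 5-FU res, lie in the last part of chromosome 8. So do KLF10 and ASAP1, which were lower. TRIB3, SAMHD1 and CDC25B, all lower, lie on chromosome 20, as do the mitosis genes AURKA, MYBL2, TPX2 and UBE2C, which were higher. With the fold threshold, 44 of the 227 chromosome 8 genes were called higher and 10 lower (73 and 9 under median-of-ratios scaling). On chromosome 20, 4 of 379 were called higher and 167 lower (12 and 83 under median-of-ratios scaling). Of all genes tested, 5.17% were called higher and 17.4% lower on TPM. Under median-of-ratios scaling these shares were 9.18% and 9.78%. DNA copy number was not measured. Without the members in these 2 regions, mitosis had 62 of 63 genes higher, DNA replication 41 of 45, and epithelial genes 35 of 49, and the interferon list has no member there.

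**Figure D5:**
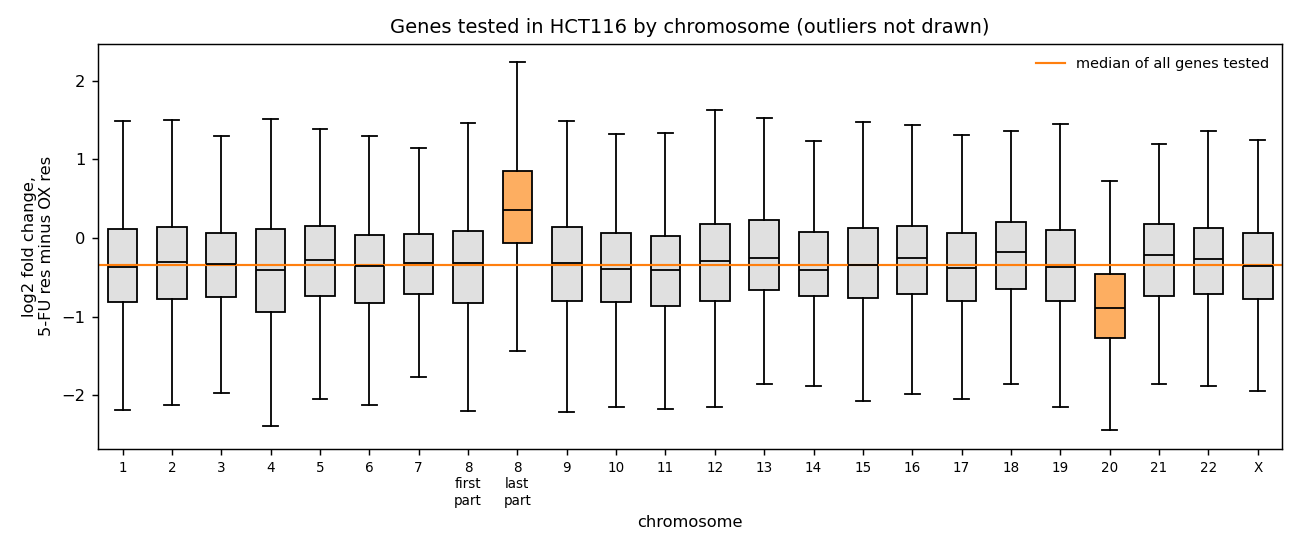
Box plot of the log2 difference, 5-FU res minus OX res, of genes tested in HCT116 by chromosome, with chromosome 8 drawn as the part before and the part from 80 Mb (box, quartiles with the median; whiskers to 1.5 times the box). Chromosome 20 (median -0.89) lies below and the last part of chromosome 8 (median 0.35) above the median of all genes, -0.34 (orange line).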

How the data were processed

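RNA from 27 libraries was sequenced by the authors on a DNBSEQ-G400 in single reads of 100 bases after TruSeq stranded mRNA preparation. After trimming with Trimmomatic, alignment to hg19 by TopHat2 2.1.1 (Bowtie2 2.2.8, SAMtools 0.1.18) followed, and the authors deposited FPKM values per gene, from Cufflinks or Cuffdiff 2.2.1. Read counts were not used here. FPKM summed to 596975 to 630176 in 5-FU res and 451767 to 502356 in OX res libraries. From the steps between low FPKM values, OX res libraries were 1.14 to 1.15 times and 5-FU res libraries 0.993 to 1.04 times as deep as 5-FU res library 1, with 35.2% to 41.3% of low genes at the commonest ratio.

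FPKM were divided by the library sum to TPM, and log2(TPM + 1) of genes with 1 TPM or more in 3 of 6 libraries was fitted by limma 3.58.1 (R 4.3.3, trend in eBayes, 2-sided) without a block, checked on simulated data. Genes were called at a log2 difference beyond 1 with p, adjusted by Benjamini-Hochberg, under 0.05, and gene lists used the adjusted p alone. The alternatives were other scalings, a pseudocount of 0.1, other filters, no trend, removal of a length trend, a replicate block and each library left out. Deviations of same-numbered libraries of the 2 populations correlated at -0.21, 0.17 and -0.17, and those of differently numbered libraries at -0.16 to 0.34. With 3 libraries per population, these values cannot settle whether libraries were paired.

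The 51 gene lists and the rule for named genes were chosen with earlier results of these data known. The rule took the 12 largest changes in each direction, the 10 largest TPM differences, the 3 largest changes per list and direction, genes the study names, the drug and repair lists, and the 5 largest interactions; the text describes a part of these genes, and IRF7, IRF9, TAP1, VIM, ZEB1, CDKN1A and other list members chosen after their values were seen. Promoters came from RefSeq (GRCh38.p14), and positions from GENCODE lifted to GRCh37, which matched 23771 of 26255 genes. Some named genes are not reported here.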

Additional observations from a re-analysis of the deposited data

Results flagged for a closer look

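These results were flagged because the difference between 5-FU res and OX res itself differed between cell lines, by the interaction term of limma over 18 libraries. The counts were 1310 genes higher and 3766 lower in HCT116 than in SW480, and 1544 higher and 2554 lower in HCT116 than in DLD-1. IFI27 differed by -10.84 from SW480 and -10.50 from DLD-1, and BST2 by -9.55 and -8.14. DDIT3 differed by -4.20 from SW480 and -6.78 from DLD-1, and KLF4 by -2.57 and -2.22. GDF15 differed by -1.74 from SW480 and -0.86 from DLD-1. EPCAM differed by 3.88 from SW480 and 3.14 from DLD-1, CDA by 2.62 and 2.98, and MYC by 2.60 and 2.03. All of these had an adjusted p under 0.05 by limma, and each kept its sign under median-of-ratios scaling. Groups of 3 libraries are too small to test for a library that stands apart.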

How the results depend on the processing

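The scaling moved the balance of calls. Against 717 higher and 2416 lower, median-of-ratios scaling gave 1273 and 1356 (48.4% of calls higher, against 22.9%), quantile normalization 1249 and 1295, FPKM as deposited 1053 and 1135, and TPM without ribosomal protein genes in the sum 1050 and 1807. The median of all genes, -0.34, was -0.0024, -0.0015, -0.023 and -0.15 under these, and -0.16 with no filter. The other settings kept both counts within 1.5 times; the replicate block gave 721 and 2418, and short RNA genes left out of the sum, an alternative added after seeing the data, 766 and 2332. Leaving out 1 library gave 624 to 782 higher, 1943 to 2486 lower and medians of -0.36 to -0.28. Of 150 genes named and tested, 129 had a value in all 17 settings, and 124 of these kept their direction and side of the threshold throughout, the exceptions being CD44, ITGAV, ITGB1, MT1F and MIR4461. The other 21 fell under the filter in some settings and kept both where they had a value. CD44 turned to 0.10 under median-of-ratios scaling and 0.077 as FPKM. Genes higher in HCT116 than in SW480, 1310, came to 2094 under median-of-ratios scaling and 2272 under quantile normalization, where the lower ones, 3766, came to 2302; other interaction counts stayed within 1.5 times. Genes near 0 have no precise fold, since log2(TPM + 1) flattens them.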

Other observations

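Several lists outside the comparisons above also differed. For comparison, 56.3% of all genes tested were lower on TPM and 37.2% under median-of-ratios scaling. Of 47 NRF2 and glutathione genes, 37 were lower in 5-FU res and 3 higher (25 and 9 under median-of-ratios scaling). Without the 2 that passed the filter only through OX res, 35 of 45 were lower and 3 higher. AKR1C3, a steroid reductase, had 2.66, 1.79 and 2.76 TPM in 5-FU res, against 67.0, 62.7 and 62.4 TPM in OX res, and OSGIN1 differed by -3.50. The aldehyde dehydrogenases split: ALDH3A1 differed by -3.94, while ALDH1A3 had 1053, 989 and 1056 TPM in 5-FU res, against 476, 454 and 506 TPM in OX res. Of 41 genes of the TNF and NF-κB response, 31 were lower and 8 higher (29 and 10 under median-of-ratios scaling). Without the 2 that passed the filter only through OX res, 29 of 39 were lower and 8 higher. The glucose carriers went apart, with SLC2A3 at -3.58 and SLC2A1 at 1.41. In sterol synthesis, squalene epoxidase SQLE had 32.9, 28.7 and 30.6 TPM in 5-FU res, against 2.80, 3.64 and 3.04 TPM in OX res, and its gene lies in the last part of chromosome 8. The olfactory receptor genes OR51B5 and OR51B4 had 182, 155 and 171 TPM and 38.5, 30.1 and 31.1 TPM in 5-FU res, against 2.198, 0.962 and 0.574 TPM and 0.582, 0.188 and 0.619 TPM in OX res. They are neighbours on chromosome 11.

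MIR4461, a short RNA gene, varied widely between libraries, at 18390, 11771 and 27810 TPM in 5-FU res, against 0, 9727 and 3382 TPM in OX res (limma adjusted p = 0.067). Its difference of 5.83 was 1.67 without OX res library 1, the library at 0 (limma adjusted p = 0.0028). Short RNA genes together took 8.50% to 10.3% of TPM in 5-FU res and 6.53% to 8.81% in OX res.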
